A study of Rattus norvegicus with 3 samples.

Results

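The genes described here encode the machinery that moves new proteins into the endoplasmic reticulum (ER), folds them there and carries them between the ER and the Golgi. They were chosen by name. A probe belonged to the set if its gene name on the array, with the endings for predicted and mapped genes removed, was that of a translocon or signal peptidase subunit, a protein disulfide isomerase, a subunit of a COPII or COPI vesicle coat, a cargo or retrieval receptor, an early secretory tether or SNARE, a Creb3-like transcription factor, Surf4 or Hyou1. This gave 63 genes with 90 probes, out of 35507 gene names with 41012 probes. Of the 63 genes, 61 were measured well enough to be tested.

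The study set induced pluripotent stem (iPS) cells of the rat line F65, which were untreated and kept on a feeder layer of irradiated mouse embryonic fibroblasts, against mix1, a mixture made from adult rat cells in culture, namely bone marrow cells and fibroblasts of the ear. The RNA of 3 iPS F65 samples carried Cy3 and met mix1 RNA in Cy5 on 3 Agilent 2-colour arrays. The labels name no other line, so F65 stands for 1 iPS line, and they do not give separate cultures for its 3 samples. Every p-value rests on the spread of those 3 samples alone, which may be technical. The spread of mix1 is left out, since it is 1 control sample.

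Proteins bound for secretion or for membranes enter the ER through the Sec61 channel, where signal peptidase and oligosaccharyltransferase modify the growing chain and disulfide isomerases help it to fold. COPII vesicles carry folded cargo towards the Golgi, and COPI vesicles carry escaped ER residents and recycling receptors back. Fibroblasts secrete large amounts of collagen, a cargo that depends on this route, and Creb3-like factors, Creb3l1 and Creb3l2 among them, are membrane-bound transcription factors known to raise secretory genes in cells that make much matrix.

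Spots well above background made up 57.1% to 61.2% of the gene spots per array in iPS F65 and 58.3% to 62.1% in mix1. No spot was saturated. All 3 arrays lay on 1 slide with 1 scan and 1 dye orientation, so an effect of the dyes and the difference between the cells cannot be told apart. Marker genes chosen for each source were read beside the set. All 10 measured fibroblast markers were lower in iPS F65 (median log2 ratio -7.58, from -10.09 for Col3a1 to -2.82 for Fbn1), and Thy1 did not reach the background limit in iPS F65 on any array. Of 9 measured macrophage and leukocyte markers 8 were lower (median -6.30), with Ptprc the exception and with Aif1 and Itgam under the background limit in iPS F65 on all arrays. Itgam was counted by its fitted ratio, but its bound, at least 1.84-fold lower, does not reach 2-fold. Of 8 measured entries for pluripotency markers 6 were higher (median 2.92, from -0.17 for Lin28a to 4.87 for Nr0b1), and Pou5f1, which encodes Oct4, was under that limit in mix1 on all arrays. The 2 entries not called higher were Lin28a and Lin28 (-0.02), an older name of the same gene. Of the plasma cell and B cell markers 2 were measured, and Sdc1 was at -0.17, while Prdm1, under the background limit in iPS F65 on all arrays, was at least 1.46-fold lower. The fibroblast and leukocyte markers had ratios below 0, as did most secretory genes described below, while most pluripotency markers had ratios above 0. The part of the marked cell types in the results below was not tested. In bulk RNA fewer cells of a type and less RNA per cell cannot be told apart.

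Most early secretory genes of the set had a ratio below 0 in the iPS cells, by unequal amounts. Of the 61 genes tested, 2 were higher in iPS F65 and 23 were lower, at a Benjamini-Hochberg adjusted p under 0.05 over all genes and a change of at least 2-fold (limma's test of the mean log2 ratio of iPS F65 over mix1 against 0), and 36 were neither. The 2 genes called higher were 3.28% of the set, where 30.9% of all 21775 genes tested were called higher. The 23 called lower were 37.7% of the set, where 24.5% of all genes were called lower. The median log2 ratio of the set was -0.70, with quartiles at -1.52 and -0.30, against a median of 0.25 over all genes tested. On the 3 arrays the median of the set was -0.72, -0.70 and -0.69, and that of all genes was 0.24, 0.25 and 0.26. The median of the set was therefore the lower on each array. Pdia2 and Creb3l2 were above background in only 1 channel each. Among the 59 genes above background in both, 1 was higher and 22 were lower, where 28.9% of all such genes were called higher and 18.7% lower. Of the 61 genes, 51 had a ratio below 0 (83.6%, against 43.4% of all genes) and 53 lay below the median of all genes.

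The spread between arrays was small. The standard deviation (SD) of a gene's log2 ratio over the 3 arrays lay between 0.00213 and 0.222 in the set, with a median of 0.0225, and 59 of the 61 genes had the same sign on all 3 arrays. An adjusted p under 0.05 was reached by 59 of the 61, but also by 95.5% of all genes tested, so the 2-fold limit set nearly all calls. Just inside this limit lay Lman1 (-1.01) and Sec61g (-1.05), and just outside it Copb2 (-0.9999, 1.9998-fold lower) and Sec61b (-0.96).

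How the dyes are scaled sets the zero of these ratios. With each array centred on the median of the genes tested, 2 genes of the set were higher and 27 lower, where 24.9% of all genes were called higher and 28.1% lower. With the background corrected by limma's normexp method and the dyes scaled by loess, which moved the median of all genes to -0.08, 2 were higher and 29 lower, where 18.3% of all genes were higher and 26.1% lower. The share of higher genes among all those called was 41.2% with that correction, against 55.8% with the processed signals. The set is made of brightly measured genes, since 44 of its 61 lay among the brightest 25% of the genes tested. Of these 44 genes, 17 were called lower and none higher (limma as above), where 18.1% of all genes that bright were called lower and 27.5% higher. Their median was -0.71, against 0.29 for all genes that bright, a comparison chosen after the values were seen.

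**Figure D1:**
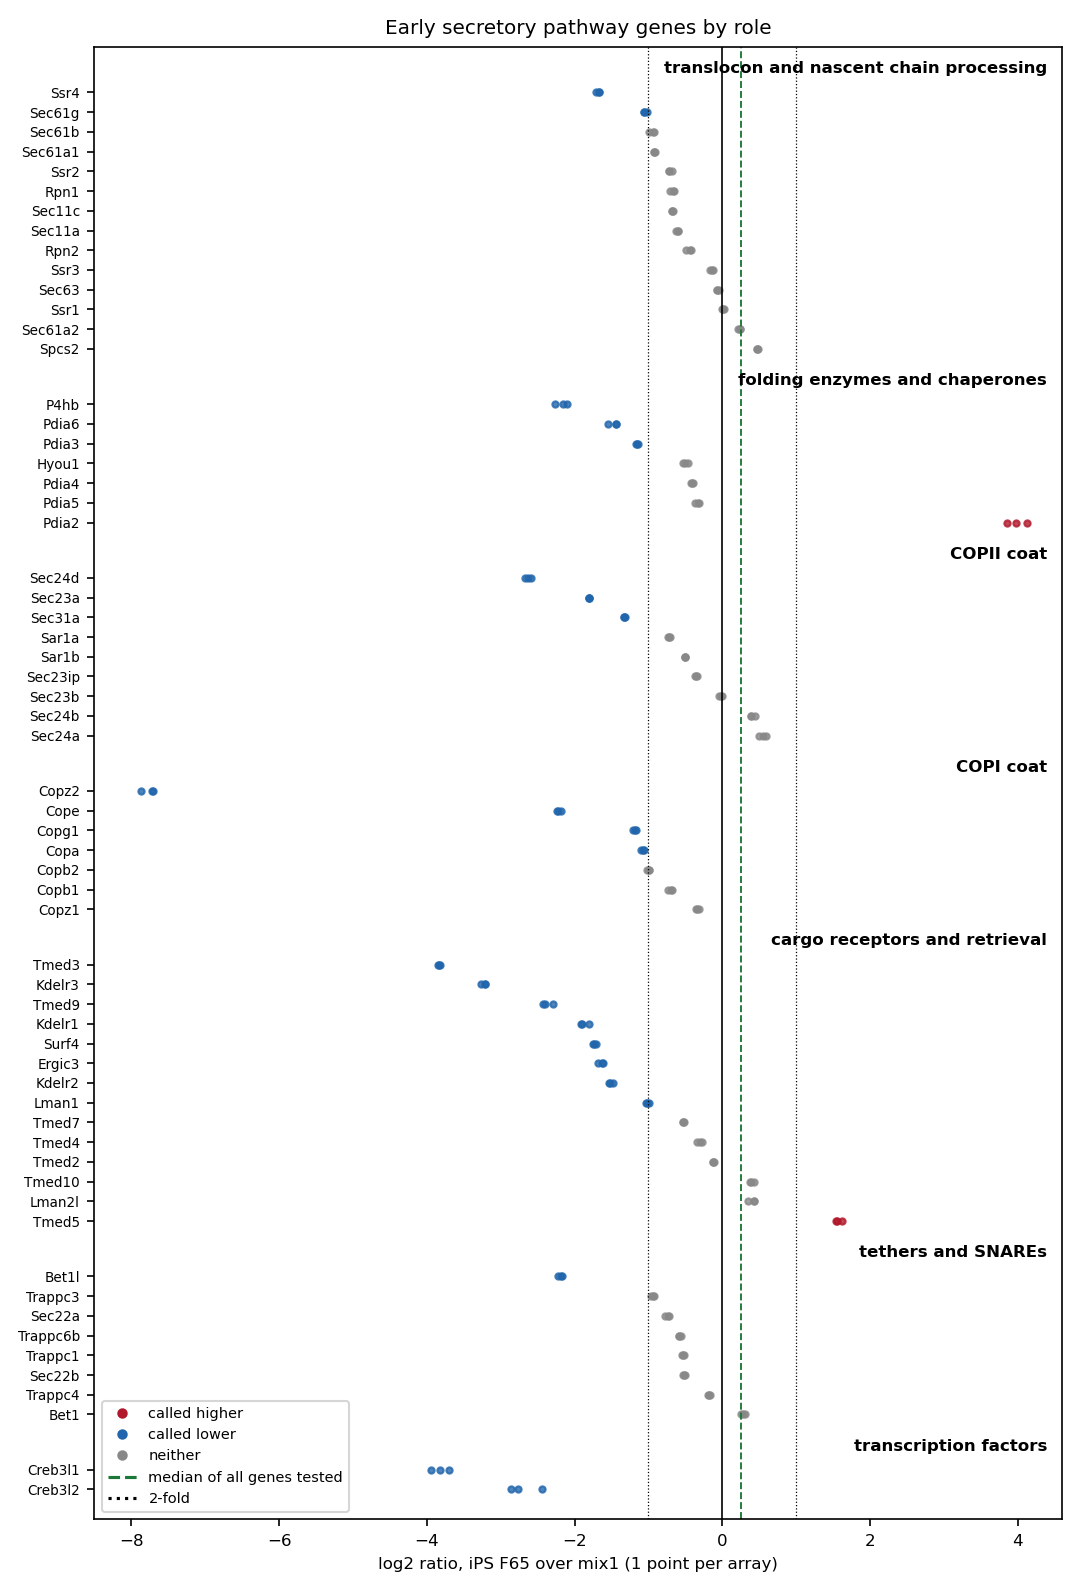
The log2 ratio of iPS F65 over mix1 on each of the 3 arrays (x axis, 1 point per array) is plotted for the 61 genes tested (y axis), grouped by role, with red for genes called higher, blue for lower and grey for neither. Dotted lines mark 2-fold, and the dashed line is the median of all genes tested, 0.25. Most points lie left of that line, Copz2 lies farthest left and Pdia2 farthest right.

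Most translocon genes stayed within 2-fold. Of the 14 measured genes, 2 were lower and none was higher (limma's test, as for all calls here), and the median was -0.64. Counts in this and the following role groups are read against the 24.5% of all genes called lower and the 30.9% called higher. With the processed signals the share of translocon genes called lower was under that of all genes. Sec61b and Sec61a1 were called lower as well with centring and with normexp and loess, and Rpn1 (-1.01) with normexp and loess. The share was then not under the 28.1% and 26.1% of all genes called lower in these 2 settings. Ssr4, a subunit of the translocon-associated protein complex, had 36786, 41981 and 43739 units of processed signal in iPS F65, against 116708, 137450 and 138481 in mix1. Its log2 ratio of -1.68 ± 0.03 (SD, n = 3, as for every value after ±) corresponds to 3.20-fold lower, with an adjusted p of 8.9e-06. The channels did not overlap. The other subunits of that complex had ratios of -0.71 (Ssr2), -0.14 (Ssr3) and 0.01 (Ssr1), so the 4 subunits were spread over more than 1 log2 unit.

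Sec61g, the gamma subunit of the channel, was lower, with ratios of -1.05, -1.06 and -1.02 on the 3 arrays (mean -1.05 ± 0.02, adjusted p = 1.55e-05). A dimmer Sec61g probe gave -0.83, and a further one was not above background on any array. These 3 probes are placed on chromosomes 14, 9 and 5 in the array's coordinates, so which copy each measures is uncertain. The beta subunit gene Sec61b, at -0.93, -0.998 and -0.94, and the channel-forming Sec61a1, at -0.93, -0.92 and -0.93, lay short of the 2-fold limit. Both passed it with centring (-1.21 for Sec61b, -1.18 for Sec61a1) and with normexp and loess (-1.19 for Sec61b, -1.33 for Sec61a1). Sec61a2, the paralog of Sec61a1, was at 0.24, 0.22 and 0.25 with the processed signals and at -0.23 with normexp and loess, so its direction is not settled. The oligosaccharyltransferase subunits Rpn1 (-0.67) and Rpn2 (-0.45), the signal peptidase subunits Sec11a (-0.61) and Sec11c (-0.67) and the translocon partner Sec63 (-0.06, and 0.26 as the median of its probes) were below 2-fold too. Spcs2, another signal peptidase subunit, had the highest ratio of this group at 0.47.

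Among the folding enzymes, 3 of 7 were lower and 1 was higher, with a median of -0.50. P4hb encodes protein disulfide isomerase, which also serves as the beta subunit of collagen prolyl 4-hydroxylase. Its processed signal was 38899, 53245 and 54331 in iPS F65, against 186399, 236410 and 233872 in mix1. Every iPS F65 value lay below every mix1 value, and the log2 ratio was -2.17 ± 0.08 (4.51-fold lower, adjusted p = 2.05e-05). Pdia6 followed at -1.55, -1.44 and -1.44 (mean -1.48 ± 0.06), and Pdia3, a partner of the lectin chaperones in glycoprotein folding, at -1.17, -1.15 and -1.14 (mean -1.15 ± 0.01). Hyou1, a chaperone of the Hsp70 class and exchange factor for BiP, was at -0.50, and Pdia4 (-0.41) and Pdia5 (-0.34) were nearer to 0.

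Pdia2 was the exception, and its probe, which lies at chr10:15464487-15464546 on the minus strand in the array's build rn3, is shown because it carries the largest increase of the set.
Pdia2: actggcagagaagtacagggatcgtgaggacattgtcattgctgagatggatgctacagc
The Pdia2 probe gave 681, 766 and 767 units in iPS F65, against 43.2, 43.9 and 53.2 units in mix1. It was well above background in iPS F65 on all 3 arrays and in mix1 on none. It passed the filter through iPS F65 alone, the channel where it is high. The ratio is therefore a bound, set by the lowest signals that still counted as above background, and Pdia2 was at least 11.0-fold higher (fitted log2 ratio 3.98 ± 0.14, adjusted p = 1.67e-05). Its product is a disulfide isomerase best known from the pancreas. With normexp on the backgrounds as deposited its ratio was 1.04 with an adjusted p of 0.186.

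**Figure D2:**
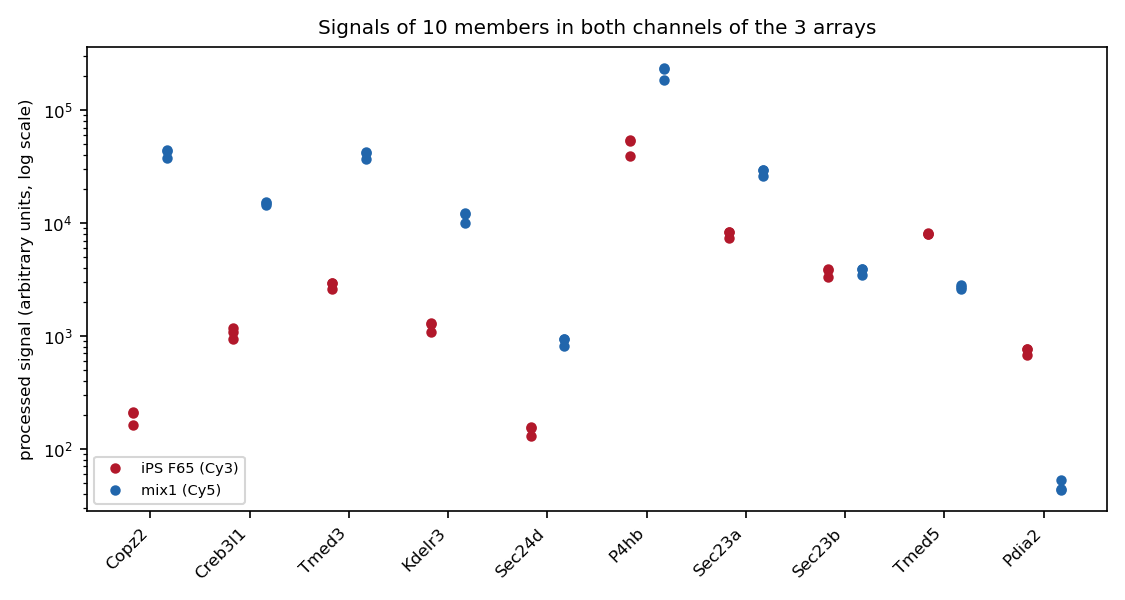
Processed signals (y axis, arbitrary units on a log scale) of 10 genes on the 3 arrays are plotted, with iPS F65 in red on the left and mix1 in blue on the right for each gene. For Sec23b the channels overlap, Tmed5 and Pdia2 are brighter in iPS F65, and the other 7 genes are brighter in mix1. Levels of different genes come from different probes and are not comparable.

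In the COPII coat the paralogs parted. Of 9 measured genes 3 were lower and none was higher, and their median was -0.51. Sec24d and Sec23a, whose products form the cargo-selecting inner coat and are known from human and animal mutations to matter for collagen export and skeletal development, were lower, while Sec23b, Sec24a and Sec24b were not. Probes of Sec24d and of both Sec23 genes are shown as examples of these paralogs. They lie at chr2:220039759-220042544 on the plus strand (Sec24d, coordinates that span more than the probe's own length), chr6:79669331-79669390 on the minus strand (Sec23a, a dimmer probe than the one that represents the gene) and chr3:133045964-133046023 on the plus strand (Sec23b) in rn3.
Sec24d: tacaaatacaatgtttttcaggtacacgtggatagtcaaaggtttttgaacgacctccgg
Sec23a: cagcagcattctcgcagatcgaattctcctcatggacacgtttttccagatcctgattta
Sec23b: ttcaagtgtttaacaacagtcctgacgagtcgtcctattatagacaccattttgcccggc
Sec24d had 129, 157 and 152 units in iPS F65, against 818, 944 and 941 units in mix1 (log2 ratio -2.63 ± 0.04, 6.19-fold lower, adjusted p = 7.04e-06). It was dim but above background in both channels. With normexp on the backgrounds as deposited its ratio was -1.18 (2.27-fold lower) with an adjusted p of 0.151.

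The brightest Sec23a probe gave 7436, 8391 and 8366 units in iPS F65, against 26061, 29322 and 29275 units in mix1. This is a log2 ratio of -1.81 ± 0.0021 (3.50-fold lower, adjusted p = 6.35e-06), and the other Sec23a probes, at -1.64 for the one shown above and -1.32, were called lower too. Sec23b had 3332, 3901 and 3870 units in iPS F65, against 3448, 3892 and 3903 units in mix1. Its channels overlapped, at a ratio of -0.02 ± 0.03 and an adjusted p of 0.362. Sec24a (0.55 ± 0.05) and Sec24b (0.41 ± 0.03) were above 0 on all 3 arrays and under 2-fold. Sec31a, of the outer coat, was at -1.32, -1.33 and -1.33 (mean -1.33 ± 0.01, adjusted p = 8.38e-06). The GTPase genes Sar1a (-0.72) and Sar1b (-0.51), which start coat assembly, and Sec23ip (-0.35) were neither.

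Cargo and retrieval receptors held the most genes called lower, 8 of 14 measured, with 1 higher and a median of -1.26. The KDEL receptors, which return escaped ER proteins from the Golgi, were all lower by their brightest probes. Probes of Kdelr3, at chr7:117593617-117593676 on the minus strand, and of Kdelr1, at chr1:96435670-96436680 on the plus strand in rn3, are shown as the receptor pair with the larger and a smaller decrease.
Kdelr3: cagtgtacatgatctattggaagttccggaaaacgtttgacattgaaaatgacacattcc
Kdelr1: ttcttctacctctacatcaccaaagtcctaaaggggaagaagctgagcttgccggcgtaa
Kdelr3 had 1076, 1284 and 1297 units in iPS F65, against 9994, 12297 and 12000 units in mix1 (log2 ratio -3.23 ± 0.03, 9.37-fold lower, adjusted p = 5.64e-06). A dimmer Kdelr3 probe, 241 to 285 units in iPS F65 against 244 to 297 units in mix1, gave a ratio of 0.01 and overlapping channels, so the probes of this gene disagree. Kdelr1 was at -1.80, -1.90 and -1.91 (mean -1.87 ± 0.06, adjusted p = 1.73e-05), and Kdelr2 at -1.53, -1.53 and -1.49 (mean -1.52 ± 0.03, adjusted p = 9.9e-06).

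The Tmed genes, which encode the p24 cargo receptors of COPI and COPII vesicles, spread from strongly lower to higher. The probes of Tmed3, at chr8:94610251-94610310 on the minus strand, and of Tmed5, at chr14:2164545-2164604 on the plus strand in rn3, are shown as the ends of that range.
Tmed3: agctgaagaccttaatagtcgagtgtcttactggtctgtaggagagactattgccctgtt
Tmed5: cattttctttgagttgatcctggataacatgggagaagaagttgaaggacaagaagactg
Tmed3 had 2608, 2950 and 2923 units in iPS F65, against 36881, 42469 and 41891 units in mix1 (log2 ratio -3.84 ± 0.01, 14.3-fold lower, adjusted p = 5.38e-06). Tmed5 had 7951, 7948 and 8160 units in iPS F65, against 2594, 2720 and 2819 units in mix1 (log2 ratio 1.57 ± 0.04, 2.96-fold higher, adjusted p = 1.55e-05). Both were separated without overlap, in opposite directions. A second, dimmer probe of Tmed5 gave 3.14 and was called higher as well. Tmed9 was at -2.42, -2.40 and -2.29 (mean -2.37 ± 0.07, adjusted p = 1.39e-05), while Tmed7 (-0.53), Tmed4 (-0.30), Tmed2 (-0.12) and Tmed10 (0.40) were neither, the last at -0.04 with normexp and loess. The median over the 3 probes of Tmed7 was 0.09, so its probes differ in sign.

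The remaining receptors were mostly lower. Surf4, a receptor for soluble cargo, was at -1.75, -1.73 and -1.71 (mean -1.73 ± 0.02, adjusted p = 7.34e-06). Ergic3, which cycles between the ER and the intermediate compartment, was at -1.68, -1.63 and -1.62 (mean -1.64 ± 0.03, adjusted p = 1.04e-05). Lman1, the lectin receptor for glycoproteins such as coagulation factors, passed the limit with its brightest probe, at -1.03, -1.02 and -0.998 (mean -1.01 ± 0.02, adjusted p = 1.45e-05), and a dimmer probe at -0.62 did not. The lectin-like Lman2l was at 0.40 with the processed signals and at -0.04 with normexp and loess. Tmed6 was not above background in either channel on any array and was not tested.

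All 7 measured COPI genes of the set had ratios below 0, with a median of -1.08. Of these, 4 were lower past the limit, where 24.5% of all genes were called lower. Outside the set, the COPI genes Arcn1 (0.08) and Copg2 (1.20, called higher with the processed signals) had ratios above 0. Copz2, an alternative zeta subunit of the coat, had the largest decrease of the whole set. Both Copz2 probes, at chr10:85627246-85627305 (brighter) and chr10:85636464-85636523 (dimmer) on the plus strand, and the probe of its paralog Copz1, at chr7:142282299-142285326 on the plus strand in rn3, are shown because the paralogs differed most.
Copz2, brighter probe: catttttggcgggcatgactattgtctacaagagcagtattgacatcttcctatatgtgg
Copz2, dimmer probe: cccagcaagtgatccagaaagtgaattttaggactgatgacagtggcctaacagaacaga
Copz1: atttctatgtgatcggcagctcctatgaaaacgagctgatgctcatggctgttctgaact
The brighter Copz2 probe gave 163, 210 and 207 units in iPS F65, against 38079, 44116 and 43659 units in mix1. The log2 ratio was -7.77 ± 0.09, or 218-fold lower, with an adjusted p of 5.64e-06, and both channels were above background. With normexp on the backgrounds as deposited the ratio was -5.92 (60.6-fold lower), still called. The dimmer Copz2 probe gave -6.70 ± 0.10. Copz1 had 670, 780 and 799 units in iPS F65, against 852, 969 and 1022 units in mix1, a ratio of -0.34 ± 0.02 that was not called at 2-fold.

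The other COPI subunits of the set lay between these paralogs. Cope, the epsilon subunit, was at -2.23, -2.24 and -2.19 (mean -2.22 ± 0.03, adjusted p = 6.81e-06). Copg1, the gamma subunit, was at -1.21, -1.18 and -1.17 (mean -1.19 ± 0.02, adjusted p = 1.15e-05), and Copa, the alpha subunit, at -1.07, -1.10 and -1.06 (mean -1.08 ± 0.02, adjusted p = 1.53e-05). The beta subunits Copb2 (-1.02, -0.99 and -0.99) and Copb1 (-0.70) were not called. A second Copb2 probe gave -0.46.

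Of 8 measured tether and SNARE genes none was higher, and their median was -0.56. With the processed signals 1 was lower, a share under the 24.5% of all genes called lower. The one was Bet1l, a SNARE of the Golgi, with 3064, 3724 and 3605 units in iPS F65, against 14278, 16846 and 16283 units in mix1 (log2 ratio -2.19 ± 0.03, 4.57-fold lower, adjusted p = 6.71e-06). Its second probe gave -1.80. Its paralog Bet1, a SNARE of ER-to-Golgi vesicles, was at 0.28 with the processed signals and at -0.18 with normexp and loess. The TRAPP tethering subunits Trappc3 (-0.94), Trappc6b (-0.58), Trappc1 (-0.53) and Trappc4 (-0.18) and the SNARE genes Sec22a (-0.74) and Sec22b (-0.52) were neither. With normexp and loess Trappc3 (-1.21) and Sec22a (-1.17) were called lower as well. The share of lower genes in this group was then above the 26.1% of all genes called lower. A dimmer Trappc1 probe that the array places on the opposite strand of the same stretch gave -0.25.

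Of the Creb3-like transcription factors, Creb3l1 was above background in both channels and lower, while Creb3l2 has only a bound. Creb3l1 had 935, 1170 and 1082 units in iPS F65, against 14372, 15151 and 15289 units in mix1 (log2 ratio -3.82 ± 0.12, 14.1-fold lower, adjusted p = 1.49e-05). Creb3l2 had 16.9, 15.4 and 15.4 units in iPS F65, below the software's background limit on all 3 arrays, against 91.7, 105 and 112 units in mix1. It was at least 1.56-fold lower (fitted log2 ratio -2.69 ± 0.22, adjusted p = 0.000126). The fitted ratio counts it among the genes called lower, but the bound does not reach the 2-fold limit, and it passed the filter through mix1 alone. With normexp and loess its fitted ratio was -0.998 and not called. Creb3l3, known as a factor of liver and intestine, was above background on 1 of 3 arrays in each channel and was not tested.

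Ratios of related genes differed by far more than their spread over arrays, in pairs chosen after the values were seen and therefore given without a test. Copz2 lay below Copz1 (log2 difference -7.43 ± 0.09), Tmed3 below Tmed5 (difference -5.40 ± 0.03) and Sec24d below Sec24a (-3.18 ± 0.05) and Sec24b (-3.04 ± 0.02). Bet1l lay below Bet1 (-2.47 ± 0.02), Sec23a below Sec23b (-1.79 ± 0.03), and Kdelr3 below Kdelr2 (-1.71 ± 0.03) and Kdelr1 (-1.36 ± 0.06), by its brighter probe. With the median over a gene's probes, Kdelr3 lay above Kdelr1 (0.26) and close to Kdelr2 (-0.09), so the order of the Kdelr genes is not settled. Sec61a1 lay below Sec61a2 (-1.16 ± 0.02). Sar1a and Sar1b differed least of these pairs (-0.21 ± 0.01). A shift common to all genes does not move such differences, but the choice of probe and the background correction do. With normexp on the backgrounds as deposited the difference was -5.53 for Copz2 and Copz1, -1.49 for Sec24d and Sec24a and -1.57 for Sec24d and Sec24b.

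**Figure D3:**
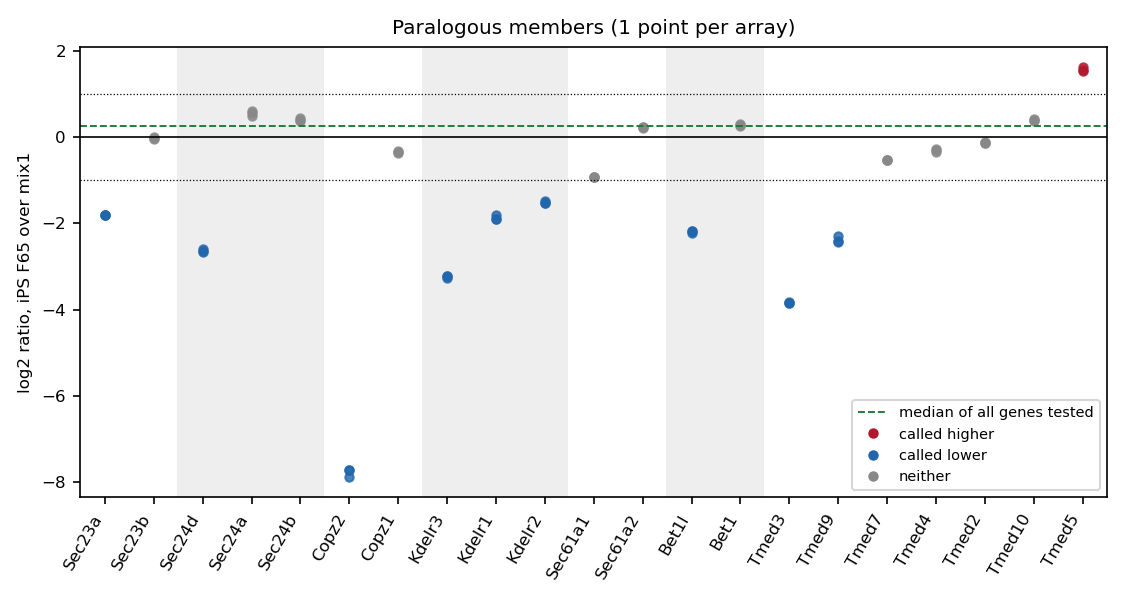
The log2 ratio of iPS F65 over mix1 on each of the 3 arrays (y axis) is plotted for related genes side by side, with shading that separates the families, red for genes called higher, blue for lower and grey for neither. In the families Sec23, Sec24, Copz and Bet1 1 gene was called lower and its relatives lay within 2-fold, while all 3 Kdelr genes were lower.

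Promoter sequences of 54 of the 63 genes were at hand, covering 250 bases before to 50 bases after the start site (RefSeq, build GRCr8). They were searched on both strands for TGACGTGG, the core of the unfolded protein response element that ATF6 and XBP1 are known to bind, for TGACGTCA, the cyclic AMP response element, and for the ER stress response element, whose last bases can overlap the first motif on its other strand. The first motif was found in 6 of the 54 genes (11.1%), against 128 of 18999 protein-coding genes (0.674%). The second was in 1 of the 54 (1.85%), that of Cope, against 434 of all (2.28%). The searched form of the ER stress response element was in none of the 54 and in 18 of all. The 6 stretches are shown in the direction of the gene, with the motif in capitals.
Kdelr3: agccgccccgCCACGTCAccgcgcggcc
Sec23a: tcctcccattTGACGTGGcagaggcggc
Copa: ctggggtagcTGACGTGGagcctttggg
Copb1: ccgcctccttCCACGTCAgccaaggact
Copb2: cccggaagttCCACGTCAgtgggtccac
Hyou1: ccgcgaaccgTGACGTGGgccaatccgc
In GRCr8 they lie at chr7:112959521-112959548 (Kdelr3), chr6:82440978-82441005 (Sec23a), chr13:87078888-87078915 (Copa), chr1:177872829-177872856 (Copb1), chr8:108040667-108040694 (Copb2) and chr8:53602681-53602708 (Hyou1, in 1 of its promoters). Kdelr3, Sec23a and Copa were called lower, at ratios of -3.23, -1.81 and -1.08, and Copb2 (-0.9999), Copb1 (-0.70) and Hyou1 (-0.50) were neither. Of all 54 genes with a promoter 18 were called lower, 2 higher and 32 neither, and the rest were not tested. A link between motif and ratio was not tested. A match describes the letters in this window, and binding was not measured.

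Neighbouring genes of the same route were read from lists chosen by function, none of which was tested as a set. Their counts are read against the 24.5% of all genes called lower and the 30.9% called higher. The list of enzymes that modify procollagen and factors for its export had the lowest median, -3.03. In it 11 of 14 measured genes were lower (78.6%) and 2 higher (14.3%). The largest decreases there were those of P4ha3, a catalytic subunit of collagen prolyl 4-hydroxylase (-6.91 ± 0.09), and Serpinh1, the collagen chaperone Hsp47 (-6.85 ± 0.10), while P3h2, a collagen prolyl 3-hydroxylase, was higher (1.66 ± 0.04), a call lost with normexp on the backgrounds as deposited (0.55). The measured export factors of this list were not lower. Klhl12 was called higher (1.44 ± 0.05), a call also lost with the backgrounds as deposited, and Mia2 was neither (0.58). Of 19 further ER chaperones and folding enzymes 7 were lower (36.8%) and none higher (median -0.84), led by Fkbp10, a prolyl isomerase that acts on collagen (-3.05 ± 0.01), and Dnajb9 (-2.42 ± 0.03). Of 19 genes of the unfolded protein response 7 were lower (36.8%) and 2 higher (10.5%, median -0.74). Selenos, of ER-associated degradation (-2.59 ± 0.0033), and Ddit3, the stress factor CHOP (-2.54 ± 0.02), were lower, and Ppp1r15b, which helps to reverse the translation block, was higher (1.28 ± 0.11). The call of Ppp1r15b was lost with normexp and loess (0.72) and with the backgrounds as deposited (0.35), and that of Ddit3 with backgrounds as deposited (-1.74, adjusted p = 0.0528).

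The other oligosaccharyltransferase subunits had 3 of 8 genes lower (37.5%) and none higher (median -0.79), with Dad1 (-1.56 ± 0.02) and Stt3a (-1.45 ± 0.04) lowest. Of 26 other COPI, Arf and Golgi entry factors 8 were lower (30.8%) and 1 was higher (3.85%, median -0.72). With the processed signals this share of lower genes was near that of all genes. With normexp and loess 14 of the 26 were lower, where 26.1% of all genes were called lower. With centring 12 were lower, where 28.1% of all genes were. The SNARE Use1 (-2.79 ± 0.03) and the GTPase Arf5 (-1.97 ± 0.04) were lowest of that list. The signal recognition particle and its receptor, which bring ribosomes to the translocon, had a median nearer to 0 (-0.13), with 1 of 7 genes lower (14.3%) and 2 higher (28.6%). Srpra, of the receptor, was lower (-1.31 ± 0.01), and Srp19 was higher (1.02 ± 0.02), a call lost with centring (0.76), with normexp and loess (0.65) and with the backgrounds as deposited (0.91).

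**Figure D4:**
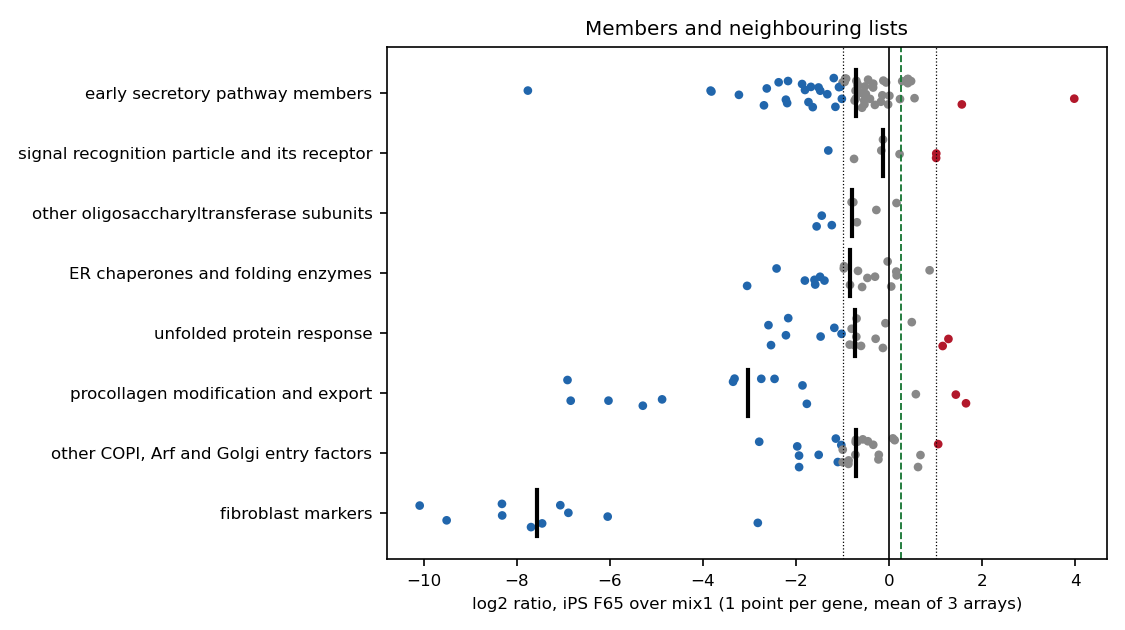
Each point is a gene's log2 ratio of iPS F65 over mix1 (x axis, mean of 3 arrays), in rows for the early secretory genes, 6 neighbouring lists and the fibroblast markers, with red or blue for a ratio of at least 2-fold either way and black bars for medians. Dotted lines mark 2-fold and the dashed line the median of all genes tested. The medians lie between -0.84 and -0.13 for the secretory genes and 5 of the lists, at -3.03 for procollagen modification and at -7.58 for the fibroblast markers.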

How the data were processed

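The members and the lists were chosen with earlier results of these data known. The deposited scanner output came from Agilent Feature Extraction 9.5.3.1, per the file headers, with intensity values per spot and channel. These are mean signals, background signals and processed signals, the last after the software's own background subtraction and dye normalization. Here the log2 ratio of the Cy3 (iPS F65) over the Cy5 (mix1) processed signal was taken. Outlier-flagged spots (204 to 213 of 43379 gene spots per array) were left out and spots of 1 probe averaged. Tests took the 25801 probes that the software marked well above background in Cy3 on every array, or in Cy5 on every array, and a gene was its brightest tested probe. Log2 values in the deposited series matrix lay close to these ratios, within 0.001 for 40866 to 40878 of 41012 probes per array. For the test of the mean ratio against 0, limma 3.58.1 was used in R 4.3.3, with its lmFit and eBayes functions. It was checked on simulated data. Probes were named through RefSeq accessions, gene numbers and older names (15677 probes) or symbols (5575), and 19760 kept the file's name. Coordinates are those of the files (rn3). Values per array were to be given for, per role group, the 3 genes with the largest ratios, those called higher, fixed genes, those with disagreeing probes and those nearest the 2-fold limit. Some of these are given by their mean alone. The text accounts for all genes of the set, and the values per array of Ergic3, Copz1 and Sec61a2 were added after they were seen. Alternatives were other background corrections, centring, filters on dim probes, another choice of probe and leaving out each replicate. Protein sequences were not used here. The number of arrays, 3, limits the precision.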

Additional observations from a re-analysis of the deposited data

How the results depend on the processing

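Of 608 values of the 61 genes under the alternatives, 577 kept their direction and call, 7 lost the call, 13 gained one and 11 changed sign, none of these in a called gene. Calls were lost for Creb3l2, Lman1, Pdia2, Sec24d and Sec61g and gained for Copb2, Rpn1, Sar1a, Sec22a, Sec61a1, Sec61b and Trappc3, each under at least 1 alternative. Ssr1 was at -0.33 with normexp and flagged backgrounds replaced, -0.023 with backgrounds as given, -0.24 with centring and -0.0025 without replicate 1 (up to 0.016 without another). Normexp with flagged backgrounds replaced also turned Bet1 (-0.18), Sec61a2 (-0.23), Lman2l (-0.045) and Tmed10 (-0.044) below 0, centring turned Sec61a2 (-0.017), and the median over a gene's probes turned Sec63 (0.26) and Tmed7 (0.085) above 0. Of 210 values of 21 neighbouring genes named, 13 lost a call and none changed sign. The number of genes of the set called lower stayed between 20 and 29, and 1 was higher with backgrounds as given or with only probes above background in both channels. The set's median was -0.96 with normexp and flagged backgrounds replaced, -0.66 with backgrounds as given, -0.96 with centring, -0.67 without a filter and -0.71 to -0.69 without 1 replicate. Of all genes, normexp with flagged backgrounds replaced called 3977 higher, normexp with backgrounds as given called 2353 higher and 2078 lower, and the filter on both channels left 3231 lower. With normexp and flagged backgrounds replaced, the calls were 0 higher for the signal recognition particle, 6 lower for oligosaccharyltransferase, 11 lower for ER chaperones, 0 higher and 12 lower for the unfolded protein response, 1 higher for procollagen and 0 higher and 14 lower for COPI, Arf and Golgi factors. With backgrounds as given, 0 were higher for the signal recognition particle, the unfolded protein response, procollagen and Golgi factors. With centring, the signal recognition particle had 0 higher and 2 lower, oligosaccharyltransferase 5 lower, the unfolded protein response 1 higher and Golgi factors 0 higher. Without 1 replicate the signal recognition particle had 1 to 2 higher. The cause of these changes was not tested. Dim genes are the least certain, since Creb3l2 and Pdia2 were near background in 1 channel. The ratio tested already pairs iPS F65 with mix1 on each array. No further pairing was possible because mix1 is the common second channel and iPS F65 the only group.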

Other observations

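Genes of the same families that the array lists under older or provisional names were outside the set. They were looked up after the values were seen, through RefSeq accessions, gene numbers and older names. Of 19 such genes tested, 2 were higher in iPS F65, 4 were lower and 13 were neither, which is 10.5% higher and 21.1% lower, against 30.9% and 24.5% of all genes tested. Their median log2 ratio was 0.06, between the -0.70 of the set and the 0.25 of all genes. With the processed signals most of them thus had a ratio above 0, unlike the genes of the set. Copg2, the paralog of Copg1, was higher at 1.17, 1.198 and 1.22 on the 3 arrays (mean 1.197 ± 0.03, SD, n = 3; limma, adjusted p = 1.42e-05), where Copg1 was lower (-1.19). The call of Copg2 was lost with normexp and loess (0.67), with the backgrounds as deposited (0.53), with centring (0.94) and with the median of its probes (0.59). Ergic2, a partner of Ergic3 in the intermediate compartment, was higher at 2.94, 2.71 and 2.72 (mean 2.79 ± 0.13, adjusted p = 3.08e-05), where Ergic3 was lower (-1.64). With normexp on the backgrounds as deposited the calls of Ergic2 (1.10, adjusted p = 0.0916) and Sec16b (-1.80, adjusted p = 0.0704) were lost. Sec16b, an organiser of ER exit sites, was lower at -3.10, -2.97 and -2.9998 (mean -3.02 ± 0.07, adjusted p = 9.51e-06), and Sdf2l1, an ER stress protein, was lower at -1.34 ± 0.02. TRAPP subunits lay on both sides of 0, from -1.36 for Trappc6a to 0.83 for Trappc12, and Trappc6a and Trappc2l were called lower.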
